A study of Mus musculus with 6 samples.

Results

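Goblet cell mucus genes are described here as 10 genes that were chosen by name: Muc2, Tff3, Agr2, Spdef, Fcgbp, Clca1, Zg16, Spink4, Klk1 and Ccl6. They are 10 of the 55331 genes listed in the gene table, and all 10 were tested for a difference between the groups. RNA was sequenced from small intestinal crypt cells in 3 WT and 3 PTBP1_KO samples from C57BL/6 mice 60 days old. WT mice had the genotype Ptbp1f/f. PTBP1_KO mice had the genotype Ptbp1f/f;Vil-creER+/-, in which villin regulatory sequence drives a tamoxifen-inducible Cre in intestinal epithelium. Both groups carried the floxed Ptbp1 alleles and both received tamoxifen (100 mg/kg) in 2 daily injections, with cells taken 20 h after the last one. Villi had been scraped away before crypts were released, so the cells came from a crypt preparation that was not sorted for goblet cells. Whether WT and PTBP1_KO crypts differ in the level or splicing of mucus genes was the question put to the data.

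Goblet cells are secretory cells of the intestinal epithelium that store mucus in granules and release it onto the surface. MUC2 is the gel-forming mucin of intestinal mucus. It is folded and linked into dimers in the endoplasmic reticulum, receives its O-linked sugars in the Golgi, and expands into a net-like gel once it is released together with proteins that bind it, cleave it or kill and clump bacteria. SPDEF is a transcription factor of goblet and Paneth cell maturation, and several genes of the list, such as Agr2 and Spink4, are also expressed in Paneth cells. PTBP1 is an RNA-binding protein that regulates alternative splicing through pyrimidine-rich RNA.

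No mucus gene passed the test for a difference in level between the groups. Splicing was tested between sets of libraries whose genotype is not given, and no event passed in the 8 mucus genes that had one. Of the 10 genes, 0 had q < 0.05, where 0.537% of all 15460 tested genes did in the authors' deposited table, and 0 of 10 had an unadjusted p below 0.05, where 4.35% did. The q-value is the authors' p-value after Benjamini-Hochberg adjustment over all tested genes, and in the authors' deposited table it was 0.9998 for each of the 10. The targeted gene itself had 53.4% of its WT level in PTBP1_KO (230.0 FPKM in WT, 122.8 FPKM in PTBP1_KO, q = 0.0125 in the authors' deposited table). FPKM is a level per kilobase of transcript, scaled to the fragments of the library, so it can be set side by side between genes. The table holds 1 FPKM value per group and none per sample, so no level below has an SD, and n is 3 samples behind each value.

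**Figure D1:**
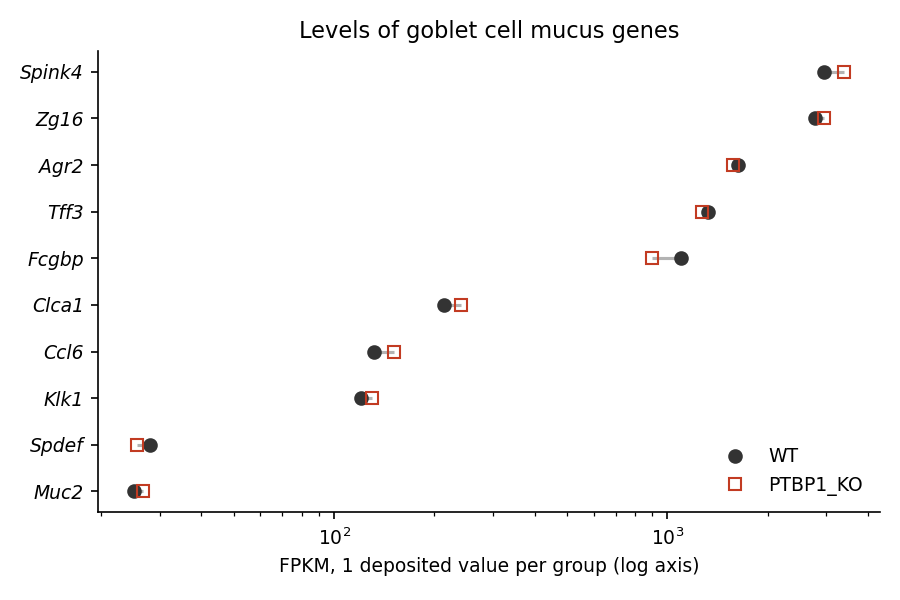
FPKM of the 10 mucus genes (log axis), with 1 deposited value for WT (filled circles) and 1 for PTBP1_KO (open squares), ordered by the WT level. The 2 values of each gene lie close together, while the genes span from 25.1 FPKM (Muc2) to 2956 FPKM (Spink4) in WT.

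Of the mucus list, 5 products were among the 100 highest of all tested genes in WT. Spink4, a small protein of the Kazal inhibitor family (ENSMUSG00000028415.4, chromosome 4, 40920052 to 40931395, plus strand), was listed at 2956 FPKM in WT crypts against 3391 FPKM in PTBP1_KO crypts. Zg16, a lectin-like protein that binds the cell wall of Gram-positive bacteria (ENSMUSG00000049350.6, chromosome 7, 127050156 to 127087328, minus strand), was listed at 2772 FPKM in WT crypts against 2957 FPKM in PTBP1_KO crypts. Agr2, a protein disulfide isomerase of the endoplasmic reticulum that is needed to make MUC2 (ENSMUSG00000020581.11, chromosome 12, 35992907 to 36004087, plus strand), was listed at 1632 FPKM in WT crypts against 1569 FPKM in PTBP1_KO crypts. For these 3 genes the PTBP1_KO level was 114.7%, 106.7% and 96.1% of the WT level.

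Tff3 encodes a trefoil peptide that is secreted with mucin and takes part in mucosal repair (ENSMUSG00000024029.4, chromosome 17, 31125306 to 31129646, minus strand). It had 1322 FPKM in WT crypts against 1267 FPKM in PTBP1_KO crypts. Fcgbp, a large protein with von Willebrand domains that is found in the mucus gel (ENSMUSG00000047730.17, chromosome 7, 28071236 to 28120862, plus strand), was listed at 1099 FPKM in WT crypts against 897 FPKM in PTBP1_KO crypts. Its PTBP1_KO level, 81.6% of WT, was the farthest from WT among the 10 genes.

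Clca1, a secreted metalloprotease that processes mucus (ENSMUSG00000028255.6, chromosome 3, 145003817 to 145032776, minus strand), was listed at 213 FPKM in WT crypts against 241 FPKM in PTBP1_KO crypts. Ccl6, a chemokine (ENSMUSG00000018927.3, chromosome 11, 83587882 to 83593087, minus strand), was listed at 132 FPKM in WT crypts against 151 FPKM in PTBP1_KO crypts. Klk1, a kallikrein serine protease (ENSMUSG00000063903.5, chromosome 7, 44225360 to 44229618, plus strand), was listed at 120 FPKM in WT crypts against 130 FPKM in PTBP1_KO crypts. Klk1 belongs to a family of closely related mouse genes that can share reads, so its value is uncertain. The gene table also gives Klk1 and Ccl6 loci wider than the annotated genes, 44221017 to 44229618 and 83582056 to 83623693. Spdef, the transcription factor of the list (ENSMUSG00000024215.14, chromosome 17, 27714352 to 27728955, minus strand), was listed at 28.0 FPKM in WT crypts against 25.6 FPKM in PTBP1_KO crypts. Muc2 (ENSMUSG00000025515.15, chromosome 7, 141690340 to 141754693, plus strand) was listed lowest, at 25.1 FPKM in WT crypts against 26.7 FPKM in PTBP1_KO crypts.

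Of the 10 genes, 6 were listed higher and 4 lower in PTBP1_KO. The authors' deposited table gave log2 fold changes of PTBP1_KO over WT from -0.29 (Fcgbp, p = 0.4999) to 0.20 (Ccl6, p = 0.183), and none was called. Their median was 0.09, against 0.02 over all tested genes, of which 54.7% were listed higher. Summed over the list, 10299.5 FPKM in WT stood beside 10655 FPKM in PTBP1_KO. In RNA from a mixed crypt preparation, a change in the number of goblet cells and a change in RNA per goblet cell cannot be told apart.

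To give a size to the error, a 95% interval was taken for each gene from the authors' fold change and p-value, with p read as that of a normal test on the log2 scale. All 10 intervals included 0. Tff3 ran from -0.37 to 0.25, Agr2 from -0.44 to 0.32, Spink4 from -0.15 to 0.54, Zg16 from -0.37 to 0.56 and Muc2 from -0.21 to 0.39. Spdef ran from -0.51 to 0.25, Clca1 from -0.22 to 0.57, Klk1 from -0.18 to 0.39 and Ccl6 from -0.10 to 0.50. For these 9 genes a change of 2-fold in either direction lay outside the interval. Fcgbp had the widest one, -1.14 to 0.56, which spans 0.452 to 1.47 times the WT level. Intervals taken from the authors' test statistic instead were wider by a median of 1.76 times, and again those of the same 9 genes stayed within 2-fold. Fcgbp then ran from -1.77 to 1.19, so the precision for this gene was low under both readings.

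**Figure D2:**
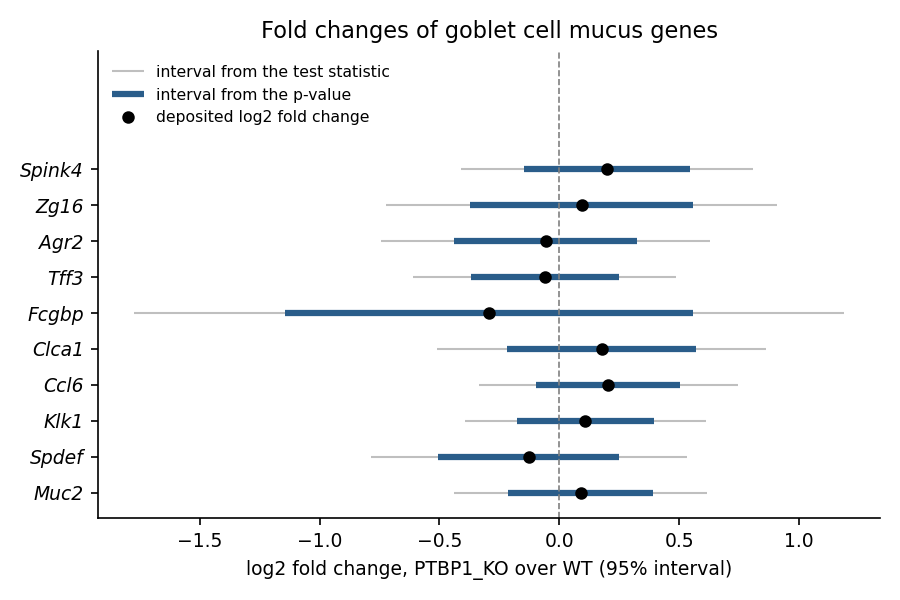
Deposited log2 fold change (PTBP1_KO over WT) of every mucus gene (points), with the 95% interval taken from the p-value (thick lines) and from the test statistic (thin lines). Every interval crosses 0, and that of Fcgbp, from -1.14 to 0.56, is the widest.

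The Muc2 level needs a separate account, because the splicing tables show far more reads over its exons than 25 FPKM would imply. The gene spans 64354 bases in GENCODE M21 on mm10, where it is tagged as a fragmented locus, as are 27 genes in all, and no other gene of the mucus list is. The gene table places Muc2 at 141744612 to 141754693, which is 15.7% of that span and overlaps 2 of its 8 annotated transcripts. Exon coverage was computed from the skipped exon table as reads that include an exon, per kilobase of effective length and per 1000000 such reads in the library, for the best-covered exon of each gene with over 90% inclusion. For Muc2 this was a 41 nt coding exon (141752129 to 141752169), with 1499, 1894 and 2034 in the 3 libraries of the authors' first set and 2368, 1461 and 1937 in the second. All 6 libraries lay above every library of Clca1, whose best-covered exon had 616 to 1291, although Clca1 was listed at 213 FPKM and Muc2 at 25.1 FPKM in WT.

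Over 8427 genes with at least 1 FPKM, exon coverage was a median of 2.54 times the FPKM, and 95% of genes had between 0.600 and 6.58 times. The other 7 mucus genes with a covered exon had 1.37 (Fcgbp) to 3.94 (Clca1) times. Muc2 had 72.1 times, the second highest of the 8427 genes. Every other Muc2 exon of the skipped exon table inside the listed locus had at least 23.4 times, which also exceeds the upper bound of 6.58. Coverage of its remaining exons was not measured. By exon coverage Muc2 stood at percentile 98.6 of these genes, whereas its FPKM stood at percentile 75.2 of the tested genes in WT. The Muc2 exon of that table before the listed locus (141698220 to 141698374) had a mean coverage of 102, which is 3.94 times the FPKM. Whether the gene model set the low FPKM was not tested. The fold change of Muc2 rests on that FPKM and carries the same limit.

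**Figure D3:**
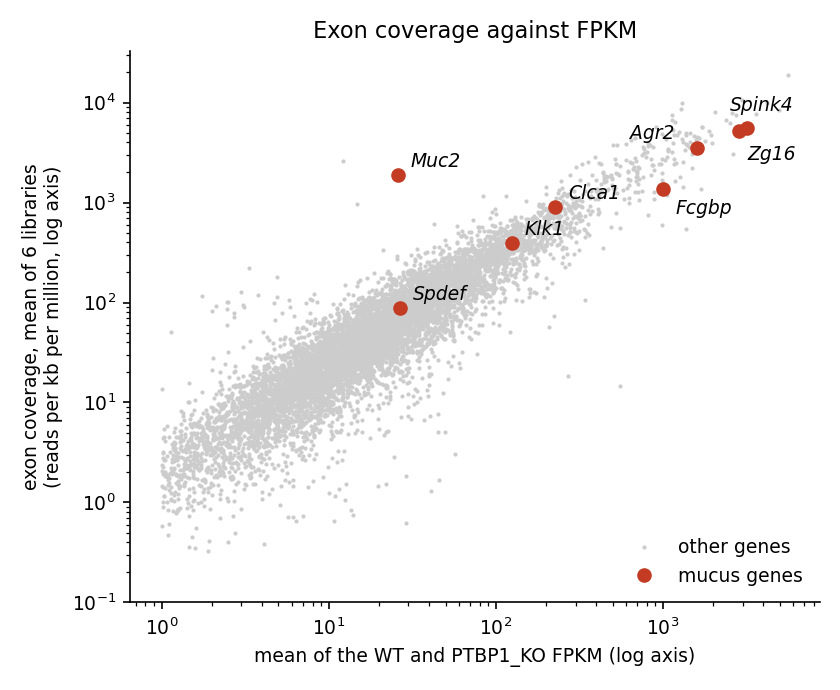
Exon coverage (mean of 6 libraries, reads per kilobase per 1000000 reads, log axis) against the mean FPKM of the 2 groups (log axis) for 8427 genes (grey) and the 8 mucus genes with a covered exon (red). The other 7 mucus genes lie within the band of other genes, whereas Muc2 lies above it at 25.9 FPKM and a coverage of 1866.

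Exon coverage also gives the spread between single libraries, which the gene table does not. The headers do not say which genotype each set of 3 libraries has, so a difference between the sets has no direction by genotype, and coverage was not tested between them. Spink4 had 3382, 5788 and 8100 in the first set and 6910, 4421 and 4688 in the second. Zg16 had 4688, 4315 and 7203 in the first set and 7834, 3448 and 3898 in the second. Both genes were thus high in library 3 of the first set and library 1 of the second. Agr2 had 2334, 3579 and 3919 in the first set and 4236, 3122 and 4103 in the second, with library 1 of the first set the lowest.

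Fcgbp had 1380, 1011 and 1266 in the first set and 1578, 1111 and 1877 in the second. Clca1 had 834, 1019 and 901 in the first set and 1291, 707 and 616 in the second. Klk1 ranged from 278 to 491 with a median of 390, and Spdef from 62.0 to 98.9 with a median of 89.9. Library 1 of the first set was the lowest of the 6 for 4 of the 8 genes, and library 1 of the second set the highest for 4 of 8. The highest library was 1.59 (Spdef) to 2.39 (Spink4) times the lowest, with a median of 1.84. Among the 3835 genes of at least 20 FPKM that ratio had a median of 1.39, and its quartiles were 1.26 and 1.57, so all 8 mucus genes were above the upper quartile. Without library 1 of the first set 6 of the 8 were above the upper quartile, and without library 1 of the second set 7.

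Markers of other cells differed between the same libraries. Library 1 of the first set had the highest coverage for 8 of the 9 enterocyte markers with a covered exon (10 in the list), with a sum of 42541 against 20218 to 30757 in the other libraries. It had the lowest coverage for all 5 covered stem and cycling markers (8 in the list), with a sum of 557 against 713.8 to 975.4, and for 5 of 6 covered fate regulators (15 in the list). The covered mucus genes summed to 14457 in this library and to 14683 to 24805 in the others. Library 1 of the second set was the highest for all 7 covered tuft cell markers (10 in the list), with a sum of 573 against 222 to 402, and library 3 of the first set for all 5 covered Paneth cell markers (14 in the list), with a sum of 20909 against 5185 to 10797. The part of these cells in the spread of the mucus genes was not tested. Among the 10 mucus genes, the PTBP1_KO level farthest from WT as a ratio was that of Fcgbp, 81.6% (1099 against 897 FPKM).

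**Figure D4:**
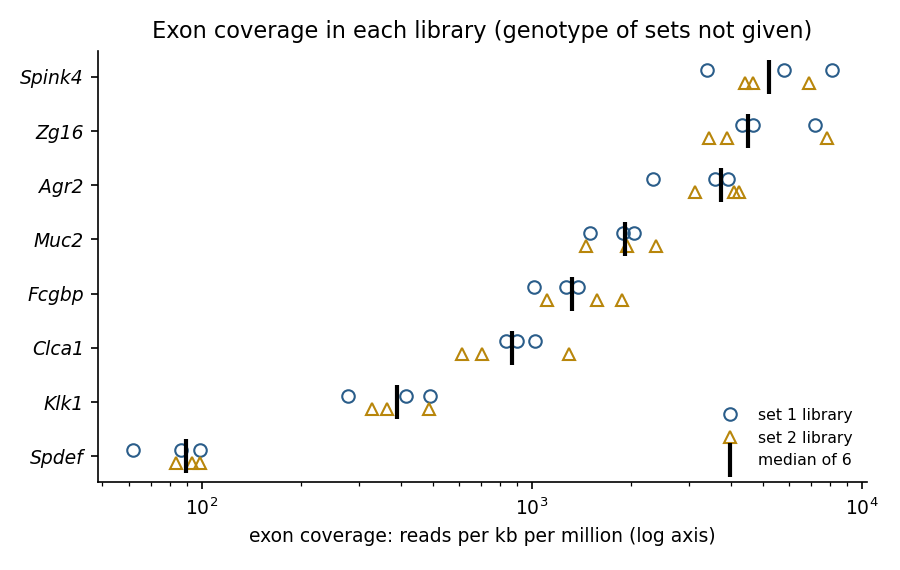
Exon coverage (reads per kilobase per 1000000 reads, log axis) of 8 mucus genes in each of the 6 libraries, as circles for the authors' first set, triangles for the second and bars for the median of 6. The genotype of the sets is not given, and the highest library is 1.59 to 2.39 times the lowest.

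Splicing was read from 25 events in 8 of the mucus genes, while Tff3 and Ccl6 had none in the tables used here. They were 20 skipped exon events, 3 mutually exclusive exon pairs, 1 alternative 5' and 1 alternative 3' splice site, with no retained intron. An event was called when the authors' FDR was below 0.05, the inclusion level difference was at least 0.1 in size and the mean over libraries was at least 20 reads. Of the 24 mucus gene events with enough reads, 0 were called, where 1.56% of 53918 events in all genes were. By FDR alone 0 of 24 passed, where 3.76% of all events did, and the smallest unadjusted p in the authors' deposited tables was 0.181. Depth was high, with a median of 8428 reads per library over these events against 262 over all events with enough reads.

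Most exons of the mucus genes were hardly ever skipped. In 19 of the 20 skipped exon events the exon was included in at least 95% of the transcripts that could be counted, from reads summed over the 6 libraries. Skipping reads never exceeded 5 in any library for 13 of the 20. The 2 Spink4 exons that were skipped most often are shown with a Muc2 exon that lies outside the listed locus and an Fcgbp exon with a longer pyrimidine stretch. Capitals mark the letters TCTT and CTCTCT, which PTBP1 is known to bind as RNA, searched on the transcript strand only with overlaps allowed. Sequences are from GENCODE M21 transcripts on mm10, 5′ to 3′, and all 4 exons are coding.
Spink4, 41 nt exon, chr4:40924924-40924964, plus strand: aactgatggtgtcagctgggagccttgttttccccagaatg
Spink4, 113 nt exon, chr4:40929079-40929191, plus strand: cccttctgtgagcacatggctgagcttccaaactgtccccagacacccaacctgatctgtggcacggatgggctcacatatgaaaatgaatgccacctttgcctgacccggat
Muc2, 155 nt exon, chr7:141698220-141698374, plus strand: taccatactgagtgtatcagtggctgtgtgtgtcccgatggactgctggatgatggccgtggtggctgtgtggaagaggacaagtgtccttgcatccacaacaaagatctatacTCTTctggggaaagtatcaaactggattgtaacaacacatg
Fcgbp, 200 nt exon, chr7:28113928-28114127, plus strand: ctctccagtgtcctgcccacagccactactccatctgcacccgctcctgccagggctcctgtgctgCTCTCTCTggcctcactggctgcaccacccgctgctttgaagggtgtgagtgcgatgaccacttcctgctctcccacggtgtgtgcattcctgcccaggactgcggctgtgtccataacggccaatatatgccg

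The 41 nt Spink4 exon was skipped by 158, 337 and 407 reads in the first set and 352, 231 and 315 in the second, against 19581 to 56625 inclusion reads per library. Its inclusion was 98.9% over all libraries, and single libraries lay between 98.7% and 99.1%. The authors' deposited table gave a difference of 0.002 with p = 0.262 and an FDR of 1. For the 113 nt Spink4 exon, skipped together with the 41 nt exon in 47 to 130 reads per library, inclusion was 98.4%. The authors' deposited table gave this event a difference of 0.003 with p = 0.181. Counted with the 41 nt exon as its upstream neighbour, the 113 nt exon had 99.8% inclusion from a mean of 45122 reads. Neither length is a multiple of 3. The 1 skipped exon event below 95% was again in Spink4. It asks how often the 41 nt exon is kept when the 113 nt exon is absent, and had 37.4% inclusion from a mean of 176 reads. Its difference of -0.035 in the authors' deposited table (p = 0.654) was the largest of any covered event in the mucus genes.

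For the 155 nt Muc2 exon before the listed locus, 488, 1360 and 1297 inclusion reads were counted in the first set and 872, 592 and 1605 in the second. In Agr2 a 64 nt exon (chromosome 12, 35998583 to 35998646) was skipped by 17 to 76 reads per library, or 0.317%. Zg16, Clca1, Klk1, Spdef and Fcgbp had at most 11 skipping reads in any library for any exon of the skipped exon table. The authors' deposited tables gave differences of no more than 0.006 in size for all these exons.

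Among the mutually exclusive pairs, the 200 nt exon of Fcgbp was counted against its 384 nt neighbour at an inclusion level of 31.1%. In Spdef a 48 nt exon was counted against the 147 nt exon (chromosome 17, 27717169 to 27717315) at 15.3%. The 200 nt and 384 nt exons of Fcgbp and the 147 nt exon of Spdef had over 99.8% inclusion in the skipped exon table. Their differences in the authors' deposited table were 0.017 (p = 0.341) for Fcgbp and 0.015 (p = 0.351) for Spdef. The 5' splice site event of Fcgbp had a mean of 2.5 reads per library, which is too few to read.

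Of the 18 member exons in the skipped exon table, 8 held TCTT or CTCTCT, and 40.8% of all 34919 skipped exons with a sequence did. Among exons within 5 nt of the same length, the letters were found in 17.6% for 41 nt, 41.2% for 113 nt, 50.9% for 155 nt and 55.2% for 200 nt. The 2 Spink4 exons held neither. Introns beside these exons were not used here.

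Genes that act before and after mucin synthesis were read from 6 lists, which hold 108 genes in all, with 107 listed and 94 tested. St6galnac2 has 2 gene identifiers, so the tests number 95, and counts below are of tests. Retnlb was the only one called. It encodes RELM-beta, a secreted goblet cell protein, and rose from 3.56 FPKM (WT) to 8.97 FPKM (PTBP1_KO crypts) (log2 fold change 1.33, q = 0.0466 in the authors' deposited table). The background of called genes is again 0.537%.

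Among 14 tested regulators of secretory and goblet fate, 0 were called, 2 were listed higher and 12 lower, with a median log2 fold change of -0.12. Hes1, the Notch target that represses secretory fate, had 49.0 FPKM in WT crypts against 44.0 FPKM in PTBP1_KO crypts, and Klf4, a factor of goblet differentiation, had 40.7 and 37.4 FPKM. Dll1, a Notch ligand of secretory precursors, had the lowest fold change (20.2 and 15.8 FPKM, log2 -0.35, p = 0.116 in the authors' deposited table). Foxa1, a forkhead factor, had the highest, with 10.6 FPKM in WT crypts against 11.9 FPKM in PTBP1_KO crypts.

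Among 22 genes of protein folding in the endoplasmic reticulum, 0 were called, 18 were listed higher and 4 lower, with a median of 0.12. Hspa5, the chaperone BiP, had 512 FPKM in WT crypts against 595 FPKM in PTBP1_KO crypts, and Pdia3, a disulfide isomerase, 368 and 412 FPKM. Fkbp11, a prolyl isomerase, had 13.8 FPKM in WT crypts against 18.3 FPKM in PTBP1_KO crypts (log2 0.40, p = 0.0726 in the authors' deposited table). Ern2, the stress sensor IRE1-beta of mucus-producing cells, had 10.9 FPKM in WT crypts against 9.77 FPKM in PTBP1_KO crypts.

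O-glycosylation had 25 tests for 24 genes, of which 0 were called, 19 were listed higher and 6 lower, with a median of 0.10. Galnt12, one of the enzymes that add the first sugar to mucin, had the lowest fold change of this list, with 31.4 FPKM in WT crypts against 23.3 FPKM in PTBP1_KO crypts. The authors' deposited table gave it a log2 fold change of -0.43 with p = 0.00425 and q = 0.325, so it did not pass. St3gal4, a sialyltransferase, had 421 FPKM in WT crypts against 382 FPKM in PTBP1_KO crypts. Fut2, a fucosyltransferase, had 6.56 FPKM in WT crypts against 8.34 FPKM in PTBP1_KO crypts.

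Mucin granules and their release were represented by 14 tested genes, of which 0 were called, 6 were listed higher and 8 lower, with a median of -0.02. Vamp8, a SNARE of granule fusion, had 107 FPKM in both groups, and Nlrp6, an inflammasome sensor linked to mucus release, had 86.6 and 86.9 FPKM. Stx3, another SNARE, had 19.2 FPKM in WT crypts against 21.7 FPKM in PTBP1_KO crypts, and Scin, which severs actin, 29.8 and 25.5 FPKM.

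Of 5 tested mucins besides Muc2, 0 were called and 4 were listed higher, with a median of 0.34. The transmembrane mucin Muc13 had 721 FPKM in WT crypts against 827 FPKM in PTBP1_KO crypts. Muc3 had 392 and 496 FPKM and Muc3a 107 and 89.0 FPKM, and these related genes may share reads. Muc4 had 14.4 FPKM in WT crypts against 20.2 FPKM in PTBP1_KO crypts (log2 0.49, p = 0.0300 and q = 0.903 in the authors' deposited table). Among 15 tested genes of the list of other goblet products, 12 were listed higher and 3 lower, with a median of 0.17. Retnlb was the 1 called. The list was chosen by name, and whether goblet cells were the source of each gene was not tested. Of its 10 covered genes, 2 (Lypd8 and Clca4a) had their highest exon coverage in library 1 of the first set. That library was the highest for 8 of 9 covered enterocyte markers. Another 4 of the 10 were highest in library 3 of the first set, as were all 5 covered Paneth cell markers. The others were highest in library 2 of the first set (1) or libraries 1 (1) and 3 (2) of the second. Lypd8, which binds flagellated bacteria, had 2424 FPKM in WT crypts against 3023 FPKM in PTBP1_KO crypts. Itln1, a lectin that Paneth cells also make, had 852 and 1467 FPKM (log2 0.78, p = 0.00455 and q = 0.337 in the authors' deposited table). Slc12a8, a cation chloride transporter family member, had 30.4 and 28.1 FPKM.

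**Figure D5:**
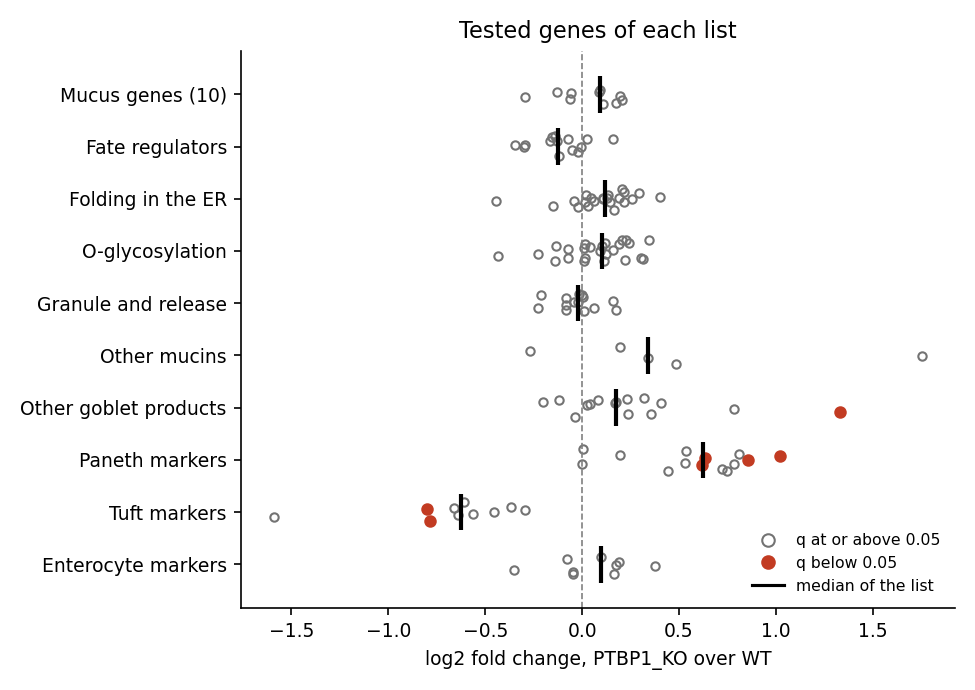
Log2 fold change (PTBP1_KO over WT) of every tested gene of the mucus list, the 6 related lists and 3 lists of cell type markers. Filled red points have q < 0.05 and bars are list medians; no mucus gene is filled, and Retnlb is the 1 filled point among the related lists.

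Over these 6 lists 0 of 407 covered splicing events were called, and 10 events in 8 genes had an FDR below 0.05 with a smaller difference. Over all genes 1.56% of events were called and 3.76% passed by FDR alone, so neither count stands above the background. Differences in the authors' deposited tables included 0.086 for mutually exclusive exons of St3gal4 (first exon on chromosome 9, 35055198 to 35055282) and 0.059 for a 147 nt exon of Slc12a8 (chromosome 16, 33617108 to 33617254). The inclusion level of the St3gal4 pair ran from 5.83% to 21.4% over the 6 libraries.

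Markers of the other cells in the preparation were read in the same way. Of 14 tested Paneth cell markers 4 were called, all higher, with a median of 0.62 and a summed level of 12244 FPKM in WT crypts against 19931 FPKM in PTBP1_KO crypts. Ang4, an antimicrobial ribonuclease, rose from 435 to 786 FPKM and Mmp7, the protease that activates defensins, from 154 to 236 FPKM, both with q = 0.0125 in the authors' deposited table. Of 10 tuft cell markers 2 were called, both lower, with a median of -0.62, and Sh2d6 fell from 26.5 to 15.2 FPKM (q = 0.0125 in the authors' deposited table). Of 11 enteroendocrine markers 1 was called, with a median of 0.07: Gcg, the proglucagon gene, rose from 35.6 to 60.4 FPKM. Of 8 stem cell and cycling markers 0 were called, with a median of -0.09. Of 9 tested enterocyte markers 0 were called, with a median of 0.10. Of 11 immune markers 3 were called, all higher, with a summed level of 113 FPKM in WT crypts against 196 FPKM in PTBP1_KO crypts. The 6 tested stromal and muscle markers stayed at or below 6.28 FPKM in both groups. The part of these cells in the levels of shared genes such as Spink4, Agr2 and Itln1 was not tested, and the difference between these lists and the mucus list was not tested either.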

How the data were processed

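Per the submitters' processing notes, the tools included STAR 2.6.1d, Trimmomatic 0.38, bcl2fastq 2.20, Cufflinks and Cuffdiff, and the build was mm10; settings are not given in the sources used here. The authors deposited 1 FPKM value per group, a log2 fold change, a test statistic (a score) and a p-value and q-value per gene, per the file headers. The sequencing depth behind the FPKM is unknown. The 5 MATS tables hold inclusion and skipping reads per library in 2 sets whose genotype the file headers do not give, with a p-value, FDR and inclusion difference by the authors; 10 columns of inclusion levels were not used. Inclusion reads in the skipped exon table summed to 30561895 to 37788828 per library.

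Computed here were list counts and medians, intervals from p, exon coverage and motif matches, with scipy 1.17.1, pandas 2.3.3 and numpy 2.4.6 in Python 3.11.15 (plots by matplotlib 3.10.9). The code of the interval and call rules was checked on simulated data. The simulated p-values came from a normal test. The check therefore could not show whether the authors' p-values follow such a test. Coordinates are 1-based on mm10 with GENCODE M21 annotation. Members and lists were chosen with earlier results of these data known. Named genes of each pathway list are those called, the 2 highest in WT and the largest rise and fall with at least 5 FPKM; for other cell types, up to 2 called and the 2 highest, of which some are given in the list totals only. A few items that these rules name are not reported here. The labels do not say whether the 3 samples of a group came from separate mice; if not, p-values measure only the spread between these samples, which may be technical.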

Additional observations from a re-analysis of the deposited data

Results flagged for a closer look

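One signal lay outside the gene table. The 155 nt coding exon of Muc2 at 141698220 to 141698374 on chromosome 7 had a mean of 1036 reads per library in the skipped exon table, while the locus that the gene table gives for Muc2 starts 46238 bases farther on. The exon was included in 98.3% to 100% of counted transcripts in every library. The cause of the shorter locus was not tested.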

How the results depend on the processing

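Of the settings that could add a call, an unadjusted p below 0.05 gave 0 mucus genes, and a difference of at least 0.05, FDR alone and a mean of 10 reads each gave 0 splicing events in them. Stricter settings cannot add to a count of 0. All 30 recomputed fold changes of single mucus genes (pseudocounts of 1 and 0.1, and centring on all tested genes) kept their sign. These settings could not have changed it. The same pseudocount is added to both groups, and centring subtracts 0.02, less than the smallest rise (0.088, Muc2). The median of the mucus list was 0.07 after centring and 0.09 without Muc2, the latter chosen after seeing the data. In the related lists, q < 0.01 left 0 genes among other goblet products, in place of 1. At an unadjusted p below 0.05 there were 3 among other goblet products, 2 among other mucins, 1 among fate regulators and 1 for O-glycosylation. Splicing events called in the 6 lists numbered 7 at a difference of at least 0.05 and 10 by FDR alone, which admit events by construction. No paired analysis was possible because the gene table holds 1 value per group and the library columns carry neither genotype nor number. For the same reason no replicate could be left out of the gene levels or of the authors' splicing tests. Leaving out each library in turn, chosen after seeing the data, gave a median ratio of highest to lowest library of 1.73 to 1.84 for the mucus genes, 6 to 8 of them above the upper quartile, and 19 skipped exon events with at least 95% inclusion each time.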

Other observations

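Among secretory products listed beside the mucus genes, Itln1 exon coverage was 4894, 3043 and 8691 in the 3 libraries of the first set and 2745, 3253 and 5784 in the second, so the highest library was 3.17 times the lowest. The Paneth cell gene Lyz1 had 2570, 2885 and 10707 in the first set and 1702, 1851 and 3863 in the second, a ratio of 6.29. Without library 3 of the first set the ratios were 2.11 for Itln1 and 2.27 for Lyz1. Library 3 of the first set was the highest for both genes, as it was for Spink4 and Klk1. Muc2, Zg16, Agr2 and Clca1 were highest in library 1 of the second set. These ranks do not sort the genes sharply. Klk1 was nearly equal in the 2 libraries (491 and 489), and Zg16 was high in both (7203 and 7834). Guca2a, the guanylin precursor, had coverage from 1402 to 2359, and Galnt12 from 76.5 to 148. These libraries have no stated genotype, and no test was made.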
